A study of Homo sapiens with 6 samples.

Results

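The purinergic P2X and P2Y receptors are the cell surface proteins through which cells sense nucleotides released by their neighbours. The genes followed here were listed by symbol, with no measured value in the rule, namely P2RX1, P2RX4, P2RX5, P2RX7, P2RY2, P2RY6, P2RY11, P2RY13 and P2RY14, which are 9 of the 30017 genes in the count table. P2X receptors are cation channels that open when extracellular ATP binds, and 3 subunits assemble into a channel. P2Y receptors are G protein-coupled receptors that respond to ATP, ADP, UTP, UDP or UDP-sugars. In macrophages these receptors are known for sensing ATP from damaged cells, for calcium signalling and migration, and, in the case of P2RX7, for triggering the NLRP3 inflammasome.

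RNA-seq was measured in a BLaER1 subclone, a human B cell leukaemia line that carries an inducible CEBPA transgene and converts into induced macrophages (iMacs), and in which the CTCF protein is fused to an auxin-inducible degron (mAID). All 6 libraries come from this degron line, so that the controls carry the tag too. The 2 libraries at 0 h are from cells grown without transdifferentiation factors and without auxin. The 2 control libraries at 96 h are from cells given 17β-estradiol, IL-3 and CSF-1 without auxin. The 2 CTCF-depleted libraries at 96 h received the same factors together with the auxin indole-3-acetic acid (IAA) from the start. The comparisons ask which receptor genes change over the conversion from B cell to iMac, and which differ when CTCF is degraded during it. No parental line given IAA is used here, so that an effect of IAA itself and the effect of CTCF depletion cannot be told apart.

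Total counts lay between 9273470 and 12718780 per library. The degron acts on the CTCF protein, and the CTCF transcript, with 1875 to 2849 counts per library, does not measure the depletion. The summed level of 10 B cell markers was 3146 to 3155 CPM (counts scaled to a library of 1000000) at 0 h, 430 to 438 in control and 443 to 456 in CTCF-depleted libraries, and all 10 were called lower in 96 h control cells. The summed level of 10 macrophage markers was 39.7 to 42.0 CPM at 0 h, 5111 to 5356 in control and 4945 to 4984 in CTCF-depleted libraries. Summed markers of granulocytes rose from at most 0.900 CPM to between 93.4 and 96.7 in control and between 72.2 and 78.1 in CTCF-depleted libraries. Those of megakaryocytes and platelets rose from at most 4.54 to between 25.9 and 30.0 CPM. Those of mast cells and basophils rose from at most 0.206 to at most 1.85 CPM. The sums do not stand for each marker. Of 6 megakaryocyte and platelet markers, 3 were tested, with 2 called higher and 1 lower in control cells against 0 h. In both control libraries, 2 of the 6 granulocyte and 2 of the 6 megakaryocyte and platelet markers were at 0. T cell markers summed to 0 at 0 h and to between 3.52 and 5.09 CPM at 96 h, with 5, 4 and 3 of the 5 listed markers in the table at 0 in both libraries of the 0 h, control and CTCF-depleted groups, and erythroid markers never exceeded 0.206 CPM. The part of other cell types in the receptor values was not tested. In these bulk libraries, a change in the share of a cell type and a change in RNA per cell cannot be told apart.

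Promoter sequence is shown for P2RX7, P2RX4 and P2RY13, the receptor genes with the largest differences over the conversion for which a reference sequence was matched. The letters are reference sequence from RefSeq (GRCh38.p14), written 5′ to 3′ on the strand of the gene, and end at the base before the GENCODE start site. For P2RX7 and P2RX4 that site lies upstream of the RefSeq start. Of the 250 bases before the RefSeq start, 193 are therefore printed for P2RX7 and 186 for P2RX4. P2RX7 (chr12:121132626-121132818, plus strand) and P2RX4 (chr12:121209879-121210064, plus strand) are tandem neighbours, and P2RY13 (chr3:151329550-151329799, minus strand) lies inside the P2Y cluster of chromosome 3. Capitals mark matches to the C/EBP pattern TTNNGNAA in P2RY13 and to AGGNGGC, the core of the CTCF motif, in P2RX4, searched on both strands.
P2RX7: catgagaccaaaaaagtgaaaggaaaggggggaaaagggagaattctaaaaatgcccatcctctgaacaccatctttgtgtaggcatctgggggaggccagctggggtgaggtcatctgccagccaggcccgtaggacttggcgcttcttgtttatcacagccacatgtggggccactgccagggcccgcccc
P2RX4: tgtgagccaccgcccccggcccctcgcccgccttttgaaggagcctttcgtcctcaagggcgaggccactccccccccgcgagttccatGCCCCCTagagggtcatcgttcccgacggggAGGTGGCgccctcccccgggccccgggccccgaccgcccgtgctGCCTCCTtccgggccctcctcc
P2RY13: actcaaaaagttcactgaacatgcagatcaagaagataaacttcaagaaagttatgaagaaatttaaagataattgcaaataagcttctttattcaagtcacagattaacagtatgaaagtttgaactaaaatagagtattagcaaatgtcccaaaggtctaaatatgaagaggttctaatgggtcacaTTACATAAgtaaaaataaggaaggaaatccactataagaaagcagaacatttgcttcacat

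The promoters differed strongly in composition, taken over all 250 bases and so including those not printed. Over the 250 bases upstream of the RefSeq start, the GC content was 76.0% for P2RX4, 53.2% for P2RX7 and 30.0% for P2RY13, and 91.3%, 38.4% and 1.52% of the 35116 RefSeq promoters had a lower value. P2RX4 held 3 matches to the CTCF core, 1 on the strand of the gene and 2 on the other, and 31.5% of the promoters hold the core at least once. P2RY13 held 1 match to the C/EBP pattern, which 33.2% of the promoters hold. P2RX7 held no match to these patterns or to the PU.1 pattern GAGGAA, which 23.6% of the promoters hold, and this says only that these letters are not in this window. P2RY11 and P2RY14 were also matched to a promoter, with 1 PU.1 match in the first and 1 C/EBP and 1 PU.1 match before the most upstream start of the second. A match is a description of the letters and not a binding site.

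The largest changes over the conversion were gains of P2RX4, P2RX7 and P2RY13, with a smaller gain of P2RX1 and a loss of P2RX5. Counts were tested with edgeR's quasi-likelihood test over the 14758 genes with enough counts, and calling a gene higher or lower required an adjusted p under 0.01 together with a log2 fold change beyond 0.6 in either direction. Of the 9 receptor genes, 6 passed the filter on low counts. P2RY13 passed it only through the libraries at 96 h, so that counts over these 6 genes are given as a description. In 96 h control cells against 0 h, 4 of the 6 were called higher, as were 25.4% of all tested genes, and 1 was called lower, as were 22.9% of all tested genes. In CTCF-depleted cells against 0 h, 4 were called higher and 1 lower, beside 27.2% and 25.2% of all tested genes. Both comparisons share the 0 h libraries, and their values are given side by side below. The median log2 fold change over all tested genes was within 0.02 of 0 in both comparisons, with 0.015 for control and 0.018 for CTCF-depleted cells.

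P2RX1 encodes a fast-desensitizing ATP channel best known from platelets and smooth muscle (hg38 chr17:3896592-3916476, minus strand, GENCODE release 44). It had 321 and 353 counts at 0 h, 663 and 703 in control and 738 and 797 in CTCF-depleted libraries. Scaled for library size, this is 29.8 ± 4.69 CPM (SD, n = 2), 61.8 ± 4.66 CPM and 70.9 ± 3.60 CPM. Every library at 96 h lay above both libraries at 0 h. The log2 fold change against 0 h was 1.07 ± 0.09 (standard error) in control cells (edgeR adjusted p = 3.66e-16) and 1.27 ± 0.09 in CTCF-depleted cells (edgeR adjusted p = 2.11e-19).

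P2RX4 encodes an ATP channel that is abundant in macrophages and microglia, where much of it resides in lysosomes (chr12:121210065-121234106, plus strand). It had 105 and 124 counts at 0 h, 786 and 763 in control and 933 and 839 in CTCF-depleted libraries, which is 10.1 ± 1.08, 70.0 ± 0.912 and 81.8 ± 6.43 CPM. The 0 h libraries were far below all others. P2RX4 rose 6.96-fold in control cells, with a log2 fold change of 2.81 ± 0.10 (edgeR adjusted p = 1.22e-32), and 8.13-fold in CTCF-depleted cells, with a log2 fold change of 3.04 ± 0.10 (edgeR adjusted p = 1.25e-34).

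P2RX7 encodes the channel that opens at high ATP concentrations and lets potassium leave the cell, the trigger of NLRP3 activation (chr12:121132819-121188032, plus strand). It had 69 and 79 counts at 0 h, 596 and 496 in control and 389 and 420 in CTCF-depleted libraries, which is 6.52 ± 0.843, 49.3 ± 4.71 and 37.4 ± 1.89 CPM. It was low at 0 h, highest in control cells and intermediate in CTCF-depleted cells, with no overlap between the groups. P2RX7 rose 7.55-fold in control cells, with a log2 fold change of 2.93 ± 0.12 (edgeR adjusted p = 1.92e-30), and 5.73-fold in CTCF-depleted cells, with a log2 fold change of 2.53 ± 0.12 (edgeR adjusted p = 1.41e-26).

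P2RX5, a P2X subunit of lymphoid cells that in humans is often spliced to a form that does not work as a channel (chr17:3672199-3696240, minus strand), moved the other way. It had 66 and 88 counts at 0 h, 38 and 31 in control and 23 and 24 in CTCF-depleted libraries, which is 6.70 ± 0.147, 3.11 ± 0.341 and 2.17 ± 0.0575 CPM. Every library at 96 h was below both libraries at 0 h. The log2 fold change was -1.10 ± 0.24 in control cells (edgeR adjusted p = 5.54e-05) and -1.62 ± 0.26 in CTCF-depleted cells (edgeR adjusted p = 1.69e-07). The table also lists the read-through gene P2RX5-TAX1BP3, which shares exons with P2RX5 and had 31 and 29 counts at 0 h, 16 and 15 in control and 11 and 11 in CTCF-depleted libraries. How reads of the shared exons were divided between the 2 entries is not given in the sources used here. The sum of both entries was 10.0 and 8.78 CPM at 0 h, 4.77 and 4.26 in control and 3.15 and 3.22 in CTCF-depleted libraries, so that the order of the groups was the same with the entries added together.

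**Figure D1:**
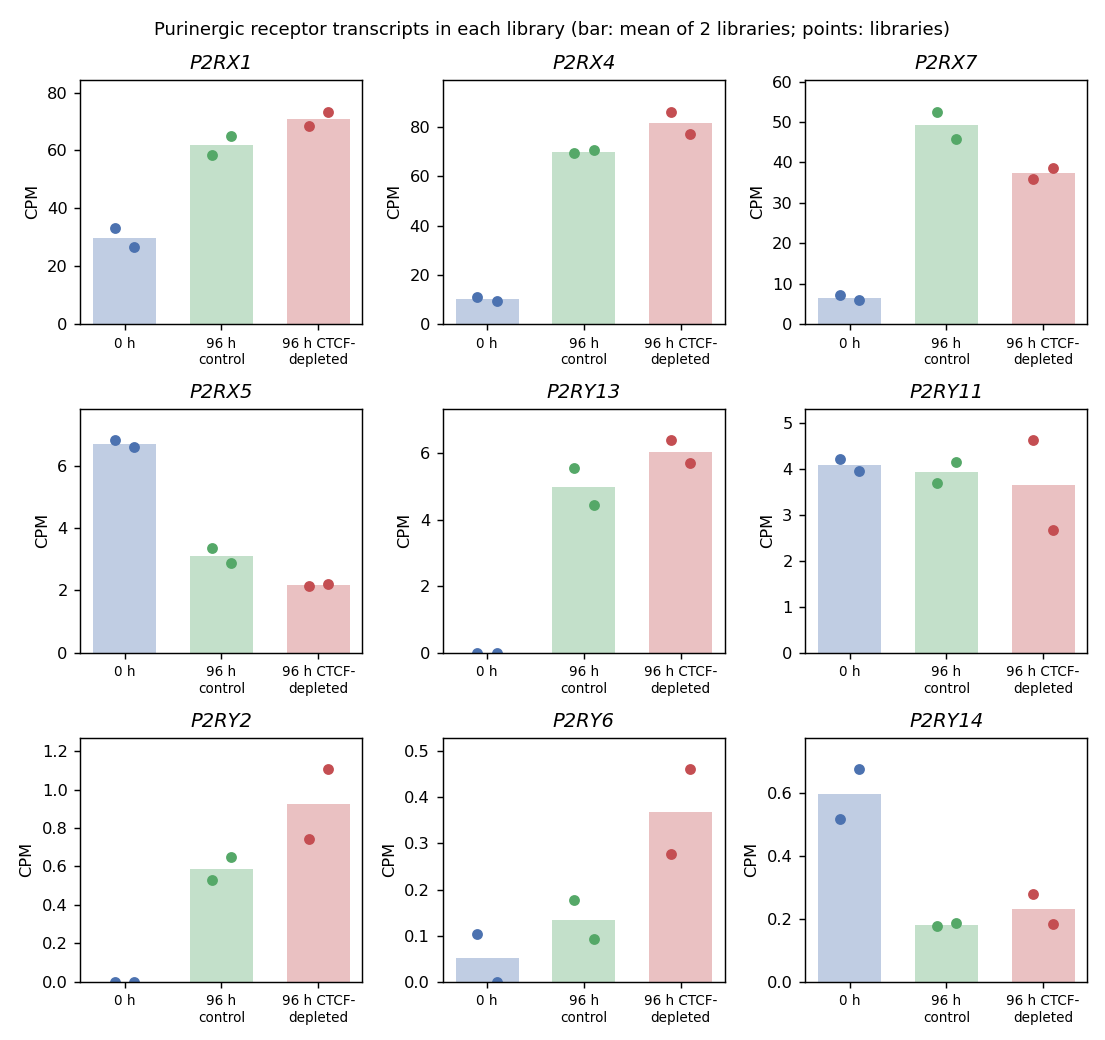
Level of the 9 receptor genes in CPM (vertical axes, each starting at 0) in the 0 h, control and CTCF-depleted libraries; bars show the mean of 2 libraries and points the libraries. P2RX4, P2RX7 and P2RY13 are low or at 0 at 0 h and high in all 4 libraries at 96 h, P2RX5 is highest at 0 h, and P2RY2, P2RY6 and P2RY14 stay at or below 1.11 CPM.

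Among the P2Y receptors, P2RY13, an ADP receptor that couples to inhibitory G proteins (chr3:151326312-151329549, minus strand), was undetected at 0 h. It had 0 counts in both 0 h libraries, 63 and 48 in control and 69 and 62 in CTCF-depleted libraries. At 96 h its mean level was 5.00 ± 0.788 CPM without and 6.05 ± 0.479 CPM with IAA. Taking 3 counts per library as the most that a count of 0 allows, P2RY13 was at least 18.7-fold higher in control cells and at least 22.6-fold higher in CTCF-depleted cells than at 0 h, limits that cover counting error only. The edgeR adjusted p-values were 5.50e-15 and 2.50e-16. They are given as a description, since P2RY13 entered the test only through its libraries at 96 h. The gene lies inside MED12L, which runs on the opposite strand and was at 23.1 CPM at 0 h, where P2RY13 had no count.

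P2RY11, an ATP receptor that couples to stimulatory G proteins as well as to Gq (chr19:10111693-10115372, plus strand), showed no detectable change. It had 41 and 53 counts at 0 h, 42 and 45 in control and 50 and 29 in CTCF-depleted libraries, and the libraries of the groups overlapped. The log2 fold change against 0 h was -0.06 ± 0.26 in control cells (edgeR adjusted p = 0.854) and -0.16 ± 0.27 in CTCF-depleted cells (edgeR adjusted p = 0.587). P2RY11 overlaps the end of PPAN, a ribosome biogenesis gene with 77 to 105 counts per library, and the read-through entry PPAN-P2RY11 was at 0 in all 6 libraries, so that the split of reads between these genes is uncertain.

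P2RY2, P2RY6 and P2RY14 did not pass the filter on low counts, and their values are given first as a description. P2RY2, a receptor for ATP and UTP that couples to Gq (chr11:73218281-73242427, plus strand), had 0 and 0 counts at 0 h, 6 and 7 in control and 8 and 12 in CTCF-depleted libraries. Against the limit of 3 counts per library at 0 h, it was at least 2.20-fold higher in control and at least 3.45-fold higher in CTCF-depleted cells. With no filter on low counts P2RY2 was called higher in both comparisons with 0 h (edgeR adjusted p = 0.00139 for control and 5.66e-05 for CTCF-depleted cells), as it was in DESeq2 (adjusted p = 0.00725 and 0.00195). When single libraries were left out it passed the filter in some fits: it was called higher in both comparisons without 0 h replicate 1, whereas without 0 h replicate 2 it was called in CTCF-depleted cells (edgeR adjusted p = 0.00435) and not in control cells (edgeR adjusted p = 0.0220). The UDP receptor P2RY6, which also couples to Gq (chr11:73264498-73305103, plus strand), had 1 and 0, 2 and 1, and 3 and 5 counts in the same order of groups. Its pooled ratio to 0 h was 3.12 in control cells (95% exact interval 0.251 to 164) and 8.51 in CTCF-depleted cells (1.14 to 377), intervals that cover counting error only. P2RY14, the receptor for UDP-glucose (chr3:151212117-151278542, minus strand), had 5 and 9, 2 and 2, and 3 and 2 counts. It was the only one of the 3 with its highest counts at 0 h, with a pooled ratio to 0 h of 0.297 in control cells (95% exact interval 0.0713 to 0.947) and 0.380 in CTCF-depleted cells (0.107 to 1.12).

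Summed over the 9 receptor genes followed, P2X transcripts outnumbered P2Y transcripts in every library, an order that leaves out the other P2 receptor genes described below, such as P2RY8. The 4 P2X genes together had 57.9 and 48.3 CPM at 0 h, 184 and 185 in control and 193 and 192 in CTCF-depleted libraries. The 5 P2Y genes together had 4.85 and 4.65 CPM at 0 h, 10.1 and 9.54 in control and 12.3 and 10.1 in CTCF-depleted libraries. Both sums were higher in every library at 96 h than at 0 h.

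Per kilobase of annotated exon, which allows levels to be compared between genes, P2RX1 led in all 3 groups, with 7.55 CPM per kilobase at 0 h, 15.7 in control and 18.0 in CTCF-depleted cells. At 0 h it was followed by P2RY11 with 1.92, P2RX5 with 1.66, P2RX4 with 1.27 and P2RX7 with 1.18 CPM per kilobase, and the libraries of the last pair overlapped. In control cells P2RX7 with 8.88 and P2RX4 with 8.81 CPM per kilobase came next and did not differ beyond the spread of the libraries, followed by P2RY11 with 1.84 and P2RY13 with 1.81, which did not differ beyond it either. In CTCF-depleted cells the order was P2RX4 with 10.3, P2RX7 with 6.74, P2RY13 with 2.19, P2RY11 with 1.71 and P2RX5 with 0.538 CPM per kilobase, where P2RY13 and P2RY11 overlapped between libraries. P2RX5 was at 0.772 CPM per kilobase in control cells, and P2RY2, P2RY6 and P2RY14 were at or below 0.206 in every group. With the length of the longest transcript in place of all exons, P2RX4 took rank 2 and P2RX7 rank 3 in control cells, and P2RX5 took rank 2 and P2RY11 rank 3 at 0 h.

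Between the groups at 96 h, no tested receptor gene passed the fold threshold. In CTCF-depleted against control cells at 96 h, 0 of the 6 tested receptor genes were called higher and 0 lower by edgeR, beside 5.41% and 7.03% of all tested genes. DESeq2 also called 0. Without the fold threshold, P2RX7 alone passed the adjusted p of 0.01, as did 29.4% of all tested genes. The libraries of the groups did not overlap for 5 of the 6 genes, beside 67.9% of all tested genes. The same count of 5 in 6 was seen against 0 h, beside 86.7% of all tested genes for control and 87.8% for CTCF-depleted cells.

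P2RX7 was lower in both CTCF-depleted libraries, with 36.0 and 38.7 CPM against 52.6 and 45.9 CPM in control libraries. Its log2 fold change was -0.40 ± 0.09 (edgeR adjusted p = 1.44e-04, range over the alternatives 8.28e-05 to 0.0657), which is 0.758-fold. The size rests partly on single libraries, since it was -0.27 without control replicate 1 (edgeR adjusted p = 0.0657) and -0.31 without CTCF-depleted replicate 1 (edgeR adjusted p = 0.0227), and DESeq2 gave an adjusted p of 0.0365.

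Its neighbour P2RX4, which starts 77.2 kb further along chromosome 12, lay on the other side of 0. It was at 86.4 and 77.3 CPM in CTCF-depleted and 69.4 and 70.7 CPM in control libraries, with a log2 fold change of 0.23 ± 0.08 (edgeR adjusted p = 0.0135, range over the alternatives 5.33e-04 to 0.114). The ratio of P2RX7 to P2RX4 counts within a library, which does not depend on the scaling, was 0.417 and 0.501 in CTCF-depleted libraries, 0.758 and 0.650 in control libraries and 0.657 and 0.637 at 0 h. Both CTCF-depleted ratios were below the other 4, a difference between the groups that was not tested.

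The other receptor genes gave small or imprecise differences at 96 h. For P2RX1 the log2 fold change was 0.20 ± 0.08 (edgeR adjusted p = 0.0456), for P2RX5 it was -0.52 ± 0.30 (edgeR adjusted p = 0.177), for P2RY13 it was 0.27 ± 0.24 (edgeR adjusted p = 0.393) and for P2RY11 it was -0.11 ± 0.27 (edgeR adjusted p = 0.793). At these standard errors, the values for P2RX5, P2RY13 and P2RY11 do not show that the groups are alike. Among the low-count genes left out by the filter, the pooled ratio of CTCF-depleted to control counts was 1.57 for P2RY2 (95% exact interval 0.744 to 3.44), 2.72 for P2RY6 (0.654 to 15.9) and 1.28 for P2RY14 (0.275 to 6.44), and each interval included 1.

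**Figure D2:**
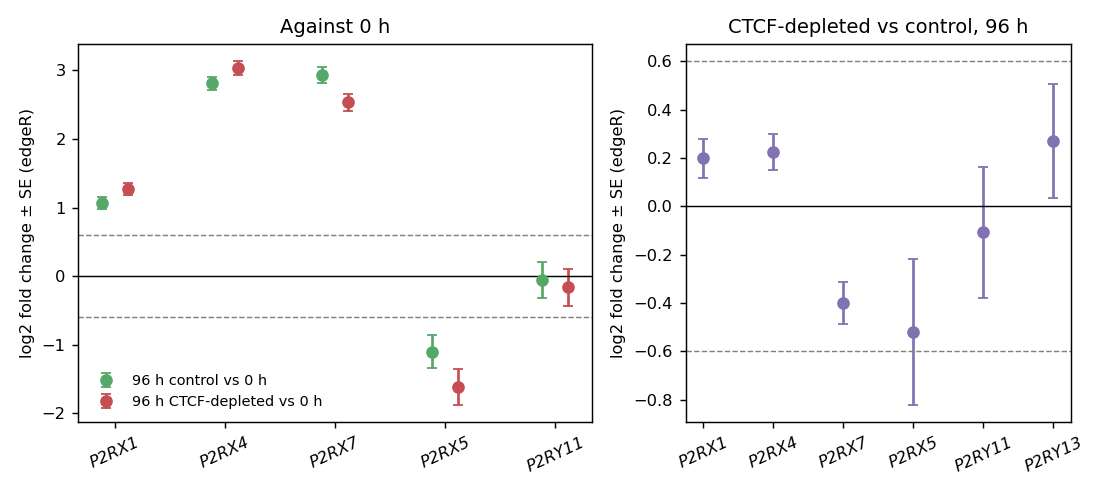
Log2 fold change with its standard error (vertical axes, edgeR) of the receptor genes against 0 h (left) and between the groups at 96 h (right); dashed lines mark the fold threshold of 0.6. P2RX4 and P2RX7 lie near 3 on the left, and on the right every point lies between the dashed lines; P2RY13 is left out on the left because its 0 h libraries had no counts.

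The genes of 4 loci lie close together, so that receptor genes could be compared with their neighbours on the chromosome. P2RX7 and P2RX4 are 22.0 kb apart on chromosome 12, P2RX5 and P2RX1 200 kb apart on chromosome 17, P2RY2 and P2RY6 22.1 kb apart on chromosome 11, and P2RY14 and P2RY13 47.8 kb apart on chromosome 3, with P2RY12 a further 7.29 kb away. Within 250 kb of the start of a receptor gene, 39 other tested genes were found. In control cells against 0 h, 10 of these were called higher and 6 lower, beside 25.4% and 22.9% of all tested genes. In CTCF-depleted against control cells 3 were higher and 2 lower, beside 5.41% and 7.03% of all tested genes. The median log2 fold change of these neighbours in the latter comparison was 0.01, beside -0.03 over all tested genes.

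In the cluster of chromosome 3, all 3 of these neighbours of P2RY13 were called at 96 h while P2RY13 was not. Of all tested genes, 5.41% were called higher and 7.03% lower between these groups. IGSF10 passed the filter on low counts only through the CTCF-depleted libraries, and P2RY12 only through the libraries at 96 h. The count of 3 and the p-values of these 2 genes are therefore given as a description. P2RY12, the ADP receptor of platelets and microglia, had 0 and 0 counts at 0 h, 40 and 47 in control and 22 and 8 in CTCF-depleted libraries, so that like P2RY13 it was detected at 96 h alone, but it was lower with IAA, with a log2 fold change of -1.50 ± 0.37 (edgeR adjusted p = 7.85e-04). That call was lost in DESeq2 (adjusted p = 0.0709) and without control replicate 1, control replicate 2 or CTCF-depleted replicate 2, with log2 fold changes from -2.36 to -0.92 over all libraries left out in turn. MED12L, a Mediator kinase module subunit gene that spans these receptors, fell by 1.32 on the log2 scale (edgeR adjusted p = 5.70e-09), from 13.9 to 5.54 CPM. IGSF10, an immunoglobulin superfamily gene, had 3 and 3 counts in control and 13 and 14 in CTCF-depleted libraries (edgeR adjusted p = 0.00485), a call lost without any one of the 4 libraries (largest adjusted p = 0.0584). The difference between P2RY13 and these genes was not tested. The ratio of P2RY13 to P2RY12 counts was 1.58 and 1.02 in control and 3.14 and 7.75 in CTCF-depleted libraries.

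At the other loci, 2 neighbours were called, near P2RX5, which was not called, and near P2RY2 and P2RY6, which did not pass the filter. TRPV1, a cation channel of sensory neurons that starts 86.8 kb from P2RX5, was at 10.5 CPM in control and 20.1 CPM with IAA, which gave a log2 fold change of 0.94 ± 0.14 (edgeR adjusted p = 1.33e-07). ARHGEF17, which starts 90.0 kb from P2RY2 and 43.8 kb from P2RY6, was at 15.9 CPM in control and 33.7 CPM with IAA, a log2 fold change of 1.08 ± 0.12 (edgeR adjusted p = 1.55e-11). None of the 4 other tested genes within 250 kb of P2RX7 and none of the 14 around P2RY11 was called at 96 h. Of all tested genes, 5.41% were called higher and 7.03% lower, and a difference between the loci was not tested.

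Over the conversion, the other tested genes of the P2 receptor family also moved. Of 8 listed, 4 passed the filter on low counts, P2RX6 and P2RY12 only through the libraries at 96 h. The counts over these 4 are therefore given as a description. P2RY8, P2RX6 and P2RY12 were called higher in control cells and P2RY1 lower, beside 25.4% and 22.9% of all tested genes. P2RY8, a receptor of B cells grouped with P2Y receptors by sequence, was at 76.4 ± 0.615 CPM at 0 h and 205 ± 5.45 CPM in control cells. Its log2 fold change was 1.43 ± 0.06 (edgeR adjusted p = 1.84e-30). P2RY8 was 0.810-fold in CTCF-depleted against control cells, a log2 fold change of -0.30 that did not pass the fold threshold. The ADP receptor P2RY1 was at 9.97 ± 0.200 CPM at 0 h and 4.89 ± 0.806 CPM in control cells (log2 fold change -1.03 ± 0.20, edgeR adjusted p = 6.24e-06). Of the P1 receptors, which sense adenosine, ADORA2B rose from 1.08 ± 0.0661 to 17.6 ± 0.0395 CPM (log2 fold change 4.01 ± 0.22, edgeR adjusted p = 7.93e-24), while the call of ADORA3, at 1 and 3 counts at 0 h and 9 and 11 in control libraries, was lost in DESeq2. ADORA3 passed the filter only through libraries at 96 h, so that its call is given as a description. Both P1 receptors missed the thresholds between the groups at 96 h, where 5.41% of all tested genes were called higher and 7.03% lower.

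The list of enzymes that break down extracellular nucleotides or act on adenosine showed changes in both directions. Of 10 tested, 4 were higher and 3 lower in control cells than at 0 h, beside 25.4% and 22.9% of all tested genes. These counts are given as a description, since some of the 10, such as ACPP and ENPP3, passed the filter on low counts only through libraries at 96 h. The median log2 fold change of the list was 0.58, beside 0.015 over all tested genes. ENTPD1 (CD39), which degrades ATP and ADP, rose from 1.86 ± 0.444 to 14.8 ± 0.584 CPM, and NT5E (CD73), which makes adenosine from AMP, rose from 23.8 ± 1.38 to 71.0 ± 2.16 CPM. The phosphatase ACPP reached 139 CPM from 1 count at 0 h, and the secreted deaminase CECR1 (ADA2) rose by 3.63 on the log2 scale. ADA, CD38 and ENPP1, with log2 fold changes of -1.29, -1.47 and -4.84, were lower. In CTCF-depleted against control cells, ENTPD1 fell by 0.79 on the log2 scale (edgeR adjusted p = 7.01e-05), a call lost in DESeq2 (adjusted p = 0.0189). ENPP3 rose from 1 count in control libraries to 1.99 CPM (edgeR adjusted p = 6.02e-07). Its p-value is given as a description, since ENPP3 passed the filter on low counts only through the CTCF-depleted libraries. The other 8 were not called. Of all tested genes, 5.41% were called higher and 7.03% lower between these groups.

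Channels through which cells release ATP were also split. Of 9 tested, 4 were higher and 4 lower in control cells than at 0 h, beside 25.4% and 22.9% of all tested genes. PANX2 passed the filter on low counts only through the libraries at 96 h, so that these counts are given as a description. The median log2 fold change of the list was -0.02, beside 0.015 over all tested genes. GJA1, a gap junction protein, fell from 233 ± 0.486 to 8.53 ± 0.668 CPM and was higher again in CTCF-depleted cells at 28.4 ± 4.48 CPM (log2 fold change between the groups at 96 h 1.73 ± 0.12, edgeR adjusted p = 1.19e-18). PANX1, the pannexin channel that releases ATP in dying cells, had a log2 fold change of -0.95 and was called lower, as were the volume-regulated channel subunits LRRC8B at -1.27 and LRRC8A at -0.61. LRRC8C, LRRC8D and CALHM2 rose by 2.28, 0.89 and 3.26 on the log2 scale, and PANX2 went from 0 to 0.990 CPM. At 96 h, LRRC8B was higher with IAA (log2 fold change 0.78 ± 0.08, edgeR adjusted p = 3.78e-12) and CALHM2 lower (-0.73 ± 0.08, edgeR adjusted p = 1.34e-11), and CALHM2 missed the fold threshold at -0.59 without CTCF-depleted replicate 1. Of the 9 genes of this list, 2 were called higher and 1 lower at 96 h, beside 5.41% and 7.03% of all tested genes. Of 4 tested nucleoside transporters, which carry adenosine across membranes, SLC29A1 and SLC29A2 were lower in control cells, with log2 fold changes of -1.03 and -0.95. SLC28A3 went from 0 to 3.03 CPM and passed the filter only through libraries at 96 h. Of the 4 transporters, 2 were also called lower and 0 higher between the groups at 96 h, beside the same 7.03% and 5.41%. Between the groups at 96 h, SLC29A1 fell by 0.89 with IAA (edgeR adjusted p = 9.43e-11), and SLC29A2 fell by 0.60, a call lost in DESeq2 and without any one of the 4 libraries.

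Genes of the inflammasome, which acts downstream of P2RX7, were higher in 7 of 9 tested cases and lower in none in control cells against 0 h. Of all tested genes, 25.4% were called higher and 22.9% lower. The median log2 fold change of the list was 1.93, beside 0.015 over all tested genes. NLRP3, the sensor, rose from 19.3 ± 1.55 to 270 ± 0.289 CPM, CASP1, the protease, from 1.14 ± 0.133 to 21.7 ± 1.37 CPM, and IL1B, the cytokine that CASP1 matures, from 2.40 ± 0.842 to 29.3 ± 1.24 CPM. NEK7, which binds NLRP3, and the adaptor PYCARD rose by 1.71 and 1.93 on the log2 scale. The list also holds IL1RN, an antagonist of IL-1 signalling, which went from 0 to 137 CPM, and TXNIP, which rose by 1.30. IL1RN passed the filter on low counts only through the libraries at 96 h, so that the counts over the list are given as a description. In CTCF-depleted against control cells, IL1B was the only one of the 9 called, at 79.2 ± 0.286 against 29.3 ± 1.24 CPM (log2 fold change 1.43 ± 0.08, edgeR adjusted p = 6.39e-22). Beside this, 5.41% of all tested genes were called higher and 7.03% lower.

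The G proteins and calcium effectors used by P2Y receptors numbered 21 tested genes, of which 9 were higher and 6 lower in control cells against 0 h. Of all tested genes, 25.4% were called higher and 22.9% lower. The median log2 fold change of the list was 0.39, beside 0.015 over all tested genes. The phospholipase PLCB2 rose by 3.40, the calcium sensor STIM1 by 2.86, the Gq subunit GNAQ by 1.67 and the calcium release channels ITPR2 and ITPR1 by 1.53 and 1.31 on the log2 scale. Other isoforms of the same steps were lower, with log2 fold changes of -2.73 for PLCB4, -2.09 for GNAI1, -1.66 for GNA12, -1.13 for GNA11 and -1.08 for PLCB1. At 96 h, GNA11 was higher with IAA (log2 fold change 0.78 ± 0.10, edgeR adjusted p = 1.13e-08) and ITPR2 lower (-0.69 ± 0.06, edgeR adjusted p = 3.17e-15), and the other 19 were not called. Beside this, 5.41% of all tested genes were called higher and 7.03% lower.

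Genes with profiles most like those of the 3 receptors with the largest changes were found by the root mean square difference of log2 CPM, centred on the mean of each gene over the 6 libraries, among 14757 genes. For P2RX4 these were IFNGR2, a subunit of the interferon-γ receptor, at 0.0558, CLEC2B, an activation-induced lectin, at 0.0567 and LOC102723959 at 0.0717. For P2RX7 they were ZFP36L2, an RNA-binding protein, at 0.0654, the collagen gene COL18A1 at 0.0901 and the interleukin-4 receptor gene IL4R at 0.0914. Between the groups at 96 h, ZFP36L2, COL18A1 and IL4R were at -0.40, -0.27 and -0.32 on the log2 scale, beside -0.40 for P2RX7. That likeness follows from the choice of the genes, which used the same 6 libraries. For P2RY13 they were SAMSN1, an adaptor protein, at 0.107, the death receptor gene FAS at 0.129 and ANTXR2, an anthrax toxin receptor gene, at 0.130.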

How the data were processed

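RNA was sequenced after ribosomal RNA depletion with a stranded kit in 6 libraries, with 2 biological replicates per group. The authors aligned reads to hg38 with STAR 2.6.1d and counted them over genes with featureCounts 2.0.6. The deposited values are raw counts, without normalization. The annotation release and strand setting of the counting are not given in the sources used here, so that overlapping and antisense genes may share reads.

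The test was edgeR 4.0.16 in R 4.3.3 (filterByExpr, TMM, quasi-likelihood test, condition as the only term, all 6 libraries, Benjamini-Hochberg adjustment over 14758 genes), with the thresholds of the study. The common biological coefficient of variation was 3.96%. The standard error is the absolute log2 fold change divided by the square root of F. With 2 libraries per group, an exact permutation test of a single gene could not reach the threshold, and p-values measure the spread between these 6 libraries. CPM values use TMM-scaled library sizes, and exact intervals are conditional binomial intervals of pooled counts.

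Positions came from GENCODE release 44, which matched 13406 of the tested genes (90.8%), and promoters from RefSeq, which matched 5 of the 9 receptor genes. Replicate numbers were not treated as pairs. Alternatives were DESeq2 1.42.0, RLE scaling, no filter, only the 4 libraries compared, a replicate block, a log2 fold change threshold of 1, the longest transcript and leaving out each library. Genes named are the 9 receptor genes, up to 5 called genes per list, direction and comparison by smallest adjusted p, called neighbours, and the 3 genes nearest in profile. The read-through and overlapping entries, and any other gene named, including the 2 further called genes of the inflammasome list and ADORA3's counts, were chosen after values were seen. The receptor genes and the lists were chosen with earlier results of these data known.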

Additional observations from a re-analysis of the deposited data

How the results depend on the processing

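Of 60 recomputed counts of receptor genes called higher or lower, 50 were equal to those reported. The other 10 were counts of genes higher than at 0 h, which went from 4 to 5 through P2RY2: with no filter, in DESeq2 and without 0 h replicate 1 for both groups at 96 h, without either control replicate for control, and without 0 h replicate 2 or CTCF-depleted replicate 1 for CTCF-depleted cells. All 162 recomputed log2 fold changes of the 6 tested receptor genes kept their combined call. The adjusted p alone changed side in 10 of them, all for P2RX1, P2RX4 or P2RX7 at 96 h and all below the fold threshold. The direction changed in 3, all for P2RY11, which was not called in any of them: at 96 h its log2 fold change ranged from -0.52 without CTCF-depleted replicate 1 to 0.26 without CTCF-depleted replicate 2, with 0.00706 without control replicate 2, and in CTCF-depleted cells against 0 h it ranged from -0.61 to 0.21 without the same CTCF-depleted libraries. Its low counts limit its precision, as they do for P2RY2, P2RY6 and P2RY14.

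The differences between replicates 1 and 2 correlated by -0.0194, 0.0109 and -0.0294 between groups, so that no large shift shared by replicate number was seen. Such correlations cannot tell whether the libraries were prepared as pairs, which the labels do not state. With the replicate number as a block, 4 receptor genes were higher and 1 lower in control cells against 0 h and 0 were called at 96 h, with P2RX7 at -0.40, and the block changed no call of a receptor gene.

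DESeq2 moved 5 of 42 list counts. P1 receptors called higher went to 1 in control and 1 in CTCF-depleted cells against 0 h. Genes called lower at 96 h went to 0 for other P2 receptors, 0 for enzymes of nucleotide and adenosine breakdown and 1 for nucleoside transporters. The cause was not tested. The longest transcript length moved 6 ranks of 27.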
